A study of Mus musculus with 4 samples.

Results

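The cerebellum of the mouse embryo was set against 3 other brain regions. These were the olfactory bulb, the pontine nucleus of the brainstem and the superior colliculus of the midbrain, shortened below to the bulb and the colliculus for the first and the last. All 4 regions were dissected at embryonic day 17.5 from mice of the ICR stock, and no mutant allele or treatment is named in the labels. The cerebellar sample was tissue of 13 mice combined. The bulb sample combined 14 mice, that of the pontine nucleus 15 and that of the colliculus 16. Each region is represented by 1 Affymetrix array, so the cerebellum is 1 of 4 samples, and no value below has an SD or a p-value. A difference between regions cannot be told apart from a difference between pooled preparations, and the number of arrays limits the precision. Each sample is a whole dissected region that holds many cell types. In such tissue fewer cells of a type and less RNA per cell cannot be told apart.

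Levels are log2 signals of the array, so 1 unit is a 2-fold difference. The array medians lay between 8.07 and 8.13. Of 19938 genes with a singly named probe set, 10908 were compared, because their highest level over the arrays exceeded 8.56, the median of the gene levels (the floor). The gap of a gene is the distance of its cerebellar level from the highest level elsewhere, or from the lowest level elsewhere when it lies under all of them. Genes with a gap of 1 log2 unit or more, called the size rule, were counted as higher or lower in the cerebellum. As a scale for weak signals, 203 vomeronasal receptor and beta defensin genes gave a median of 5.19, and 95% of their levels lay under 7.33, which is used here as the background level. A gap whose dim side lies under it is a lower bound.

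The cerebellum coordinates movement and develops from the dorsal part of the anterior hindbrain, next to the midbrain-hindbrain boundary. Its neurons come from 2 germinal zones. The rhombic lip gives the glutamatergic lineages, above all the granule cell precursors, which cover the surface of the late embryonic cerebellum and multiply in response to sonic hedgehog from Purkinje cells. The ventricular zone gives the inhibitory lineages, which are the Purkinje cells, the only output neurons of the cerebellar cortex, and the inhibitory interneurons. Late in gestation Purkinje cells have stopped dividing and have begun to form their layer, while granule cell precursors are expanding.

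Levels of 5 marker genes are given as a description, since the genes were chosen with earlier results of these data known. Atoh1, the transcription factor of rhombic lip progenitors and granule cell precursors (probe set 10538751), read 10.70 in the cerebellum, against 6.92 (bulb), 7.70 (pontine nucleus) and 7.20 (colliculus). En2, an engrailed homeobox gene of the midbrain-hindbrain territory (probe set 10520368), read 11.47 in the cerebellum, against 7.26, 6.95 and 7.44 in the same order. Car8, which encodes a carbonic anhydrase-related protein of Purkinje cells, read 12.09 in the cerebellum, against 8.46, 8.69 and 9.07. All 3 genes read higher on the cerebellar array than on each of the other 3 arrays. The other 3 regions lay within 0.78 of each other for Atoh1 and within 0.61 for Car8. Calb1, the gene of the calcium-binding protein calbindin, read 11.81 in the cerebellum, against 7.86 (bulb), 9.64 (pontine nucleus) and 9.63 (colliculus). Pax2, a marker of cerebellar inhibitory interneuron precursors, read 10.23 in the cerebellum, against 7.94, 8.06 and 8.01. All 5 markers were highest in the cerebellum, which is no check of the label because of how they were chosen.

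Across all compared genes the size rule called 66 higher in the cerebellum, which is 0.605% of the 10908, and 17 lower, which is 0.156%, or 83 and 0.761% in either direction. The gaps of the higher genes were wider. Their median was 1.34 log2 units with a range of 1.01 to 4.68, and 12 of the 66 reached 2 units. For 28 of the 66 only the cerebellum exceeded the floor. The lower genes had a median gap of -1.17 and a widest gap of -1.89. Small differences ran the other way. The cerebellum was the region with the lowest level for 30.9% of the compared genes and the one with the highest for 17.9%, and 60.4% of the genes lay below the mean of the other 3 regions there. The median difference from that mean was -0.06 over all compared genes, and 87.8% of the genes lay within 0.5 of it. This median was -0.032 after quantile normalization, and the array medians themselves spanned 8.07 to 8.13. Whether these small differences go beyond an offset between arrays was not tested. Just inside the rule stood Slc44a5 and Tmem255a with gaps of 1.01 and Trpc7 with -1.01. Just outside it stood Stk32a with 0.98 and Grin2b with -0.99.

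The nearest region differed from gene to gene. For 26 of the 66 higher genes the next highest level was in the bulb, for 23 in the colliculus and for 17 in the pontine nucleus. For 27 of the 66 the other 3 regions lay within 0.5 of each other, so that the cerebellum stood alone above a common level. Skor1, a SKI family transcriptional corepressor gene, is an example, with 10.16 in the cerebellum against 7.33, 7.33 and 7.40 in the bulb, the pontine nucleus and the colliculus. Its levels outside the cerebellum lay at or near the background level of 7.33, where regions can agree for lack of signal. For 22 of the 66 the other regions were spread over more than 1 unit. Tfap2a, which encodes the AP-2 alpha transcription factor, is an example of those, with 11.04 in the cerebellum against 7.84, 6.67 and 9.90. Without the bulb among the comparators 238 genes were higher in the cerebellum, whereas without the pontine nucleus there were 93 and without the colliculus 112. Among the 17 lower genes the next lowest region was the bulb for 11, and the highest was the pontine nucleus for 14.

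**Figure D1:**
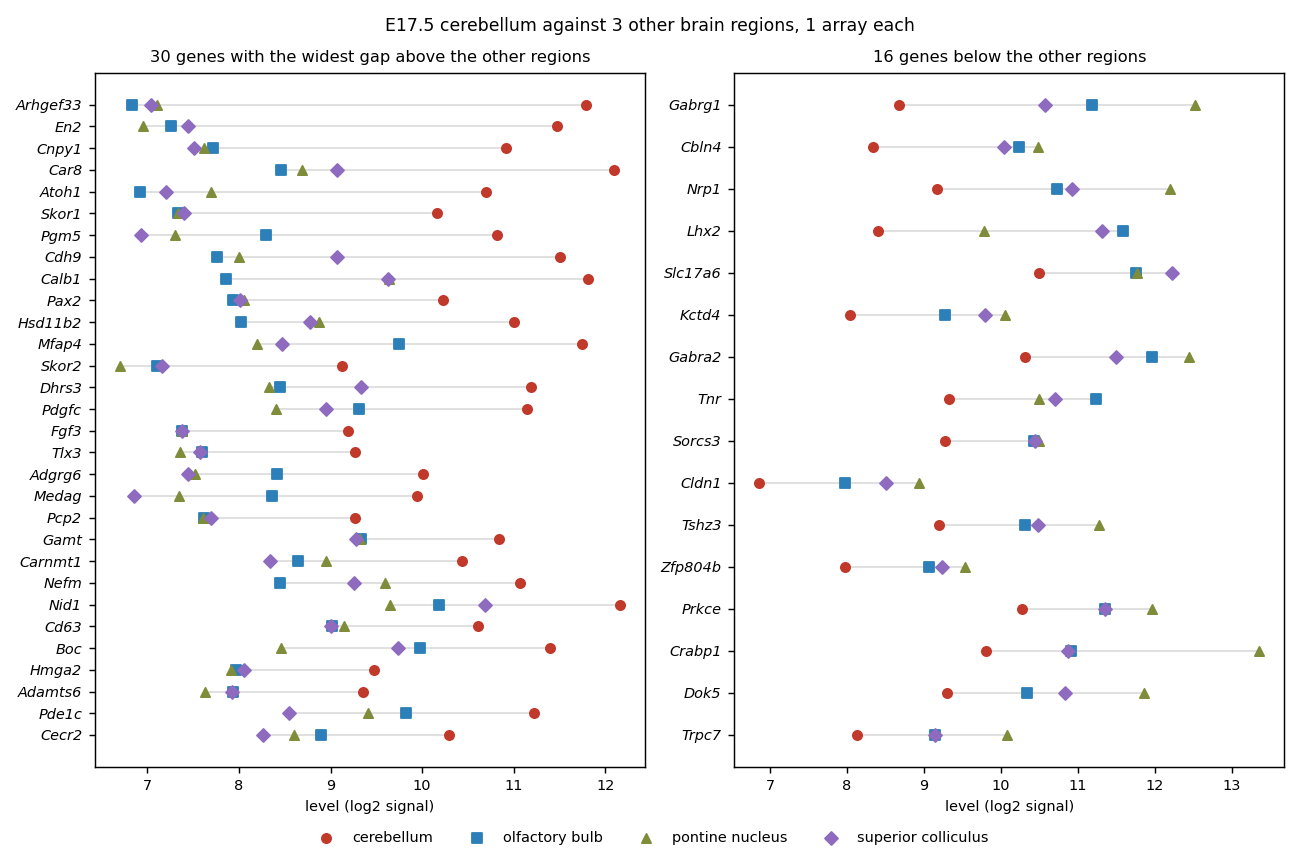
Levels (log2 signal, horizontal axis) of the 30 genes with the widest gap above the other regions (left) and of the 16 named genes below them (right), with 1 point per region and 1 array per region. The cerebellum (red circles) lies at the right end of every line on the left, by 4.68 log2 units for Arhgef33, and at the left end of every line on the right, where the widest gap is that of Gabrg1 at -1.89.

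The widest gap belonged to Arhgef33, a gene of a guanine nucleotide exchange factor family (probe set 10447108). It read 11.79 in the cerebellum, against 6.83 (bulb), 7.11 (pontine nucleus) and 7.04 (colliculus), a gap of at least 25.6-fold, since all 3 other levels lay under the background level. The next were En2, 16.3-fold higher than in the next region, and Cnpy1, a canopy family gene named for its part in fibroblast growth factor signalling at the midbrain-hindbrain boundary of zebrafish, which read 10.91 against 7.72, 7.62 and 7.51. Car8 and Atoh1 followed with gaps of 3.02 and 3.0 log2 units. En2 and Cnpy1 are neighbours on chromosome 5, with no protein-coding gene between them in the RefSeq table.

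Promoter windows are shown for the genes at the top of this order, since their gaps are the widest in the comparison. Of the 5 genes with the widest gaps, 3 had windows in the RefSeq table of GRCm38.p6, which run from 250 bases before to 50 bases after a gene start. En2 and Car8 are named only. Each is printed 5′ to 3′ on the strand of the gene. Capitals mark matches to 4 motifs searched on both strands: the E-box variants CAGCTG and CAGATG, which basic helix-loop-helix factors such as Atoh1 can bind, TAATTA, a core recognised by many homeodomain proteins, and GACCACCCA, the core that Gli factors bind.
Arhgef33, chr17:80307157-80307456, plus strand: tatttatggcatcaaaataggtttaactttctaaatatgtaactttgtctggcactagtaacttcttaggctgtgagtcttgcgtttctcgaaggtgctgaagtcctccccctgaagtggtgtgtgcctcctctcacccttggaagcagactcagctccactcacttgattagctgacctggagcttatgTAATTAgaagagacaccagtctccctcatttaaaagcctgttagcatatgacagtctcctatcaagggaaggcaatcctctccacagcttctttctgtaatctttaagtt
Cnpy1, first window, chr5:28245739-28246038, minus strand: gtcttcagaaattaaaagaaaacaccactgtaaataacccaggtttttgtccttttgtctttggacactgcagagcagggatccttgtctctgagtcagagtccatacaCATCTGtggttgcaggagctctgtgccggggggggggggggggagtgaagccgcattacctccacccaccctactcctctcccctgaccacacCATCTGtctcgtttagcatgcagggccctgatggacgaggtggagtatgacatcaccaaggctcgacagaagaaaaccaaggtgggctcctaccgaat
Cnpy1, second window, chr5:28210119-28210418, minus strand: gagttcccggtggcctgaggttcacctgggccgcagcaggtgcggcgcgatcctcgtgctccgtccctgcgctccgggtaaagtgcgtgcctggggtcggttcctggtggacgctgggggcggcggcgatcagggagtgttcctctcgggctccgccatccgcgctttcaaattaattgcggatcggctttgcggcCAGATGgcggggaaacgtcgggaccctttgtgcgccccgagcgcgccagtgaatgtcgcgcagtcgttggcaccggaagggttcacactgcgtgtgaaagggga
Atoh1, chr6:64728875-64729174, plus strand: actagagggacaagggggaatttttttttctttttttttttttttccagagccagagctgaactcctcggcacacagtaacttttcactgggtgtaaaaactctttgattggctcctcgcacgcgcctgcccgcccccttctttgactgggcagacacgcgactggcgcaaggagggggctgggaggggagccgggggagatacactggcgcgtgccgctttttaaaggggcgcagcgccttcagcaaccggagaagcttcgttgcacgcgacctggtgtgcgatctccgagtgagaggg
The Arhgef33 window held 1 TAATTA, the Cnpy1 windows held 2 and 1 copies of CAGATG counting both strands, and the Atoh1 window held none of the 4 motifs. A match is a description and not a binding site. Over the 71 windows of the 52 higher genes that had one, 25.4% held CAGCTG, against 15.4% of the 11346 windows of all compared genes and 16.3% of all 32851 windows. For CAGATG the shares were 18.3%, 11.3% and 17.2% in the same order, for TAATTA 4.23%, 2.54% and 5.29%, and for GACCACCCA 0%, 0.185% and 0.253%. Over the 16 windows of the lower genes the shares were 0% for CAGCTG, 31.2% for CAGATG, 25% for TAATTA and 0% for GACCACCCA. No test was made of these shares.

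The genes of the midbrain-hindbrain boundary, which position the cerebellum along the neural tube, were led by engrailed and its neighbour. Of 27 measured genes in that list 19 lay above the level floor, and 4 of the 19 were past the size rule as higher, namely En2, Cnpy1, Pax2 and En1, with none lower. All 4 exceeded the floor only in the cerebellum, so the share of 0.605% over all compared genes is no measure for this count. The median difference from the mean of the other regions was 0.55, against -0.06 over all compared genes, and 16 of the 19 lay above that mean, where 39.0% of all compared genes did. En1, the paralogue of En2, read 9.04 in the cerebellum, against 7.51 (bulb), 7.69 (pontine nucleus) and 7.70 (colliculus), so its gap of 1.34 was narrower than the gap of 4.03 of En2. Genes of the list that respond to fibroblast growth factor lay above the mean of the other regions by differing amounts, and the bulb was close or higher. Etv5 read 10.49 against 10.17, 8.77 and 9.07, and Spry2 9.30 against 9.06, 8.35 and 8.60. The relatives of Spry2 differed less from the bulb or lay below it, with Spry1 at 9.49 against 9.47, 9.26 and 9.40, and Spry4 at 9.31 against 9.69, 8.81 and 8.93. Ligand genes differed among themselves. Fgf15, a fibroblast growth factor gene, read 10.55 in the cerebellum, against 10.27, 8.23 and 9.55. Fgf8 read 8.94 against 8.57, 8.54 and 8.80, and Wnt1 and Fgf17 did not reach the floor on any array. Otx2, the midbrain-side homeobox gene that also marks late cerebellar granule precursors, read 10.70 in the cerebellum, against 8.56, 7.04 and 11.93, so that the colliculus lay above the cerebellum.

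Genes that define the neighbouring territories are given as levels. Of 14 measured Hox genes, which are expressed behind the first rhombomere, 11 lay at least 1 log2 unit below the pontine nucleus. All 11 exceeded the floor only in the pontine nucleus, so the floor fixed this count, and the share of 1.88% over all compared genes is no measure for it. The other 3 Hox genes did not reach the floor, and the cerebellum lay within 0.25 of the pontine nucleus for each of them. Hoxa2 read 7.71 in the cerebellum, against 6.85 (bulb), 12.41 (pontine nucleus) and 7.07 (colliculus). Of 15 measured forebrain patterning genes 11 lay at least 1 unit below the bulb (2.46% of all compared genes did). For 7 of the 12 above the floor only the bulb exceeded it, and the median difference of -0.96 turned to 0.073 without the bulb. Of 15 measured midbrain tectum genes 12 lay at least 1 unit below the colliculus (2.63% of all compared genes did). For 5 of the 14 above the floor only the colliculus exceeded it, and the median of -0.51 turned to 0.24 without the colliculus. The tectum genes above the floor that were not below the colliculus by 1 unit were Pax3, a paired box gene of the dorsal neural tube, at 10.59 in the cerebellum against 7.12, 7.75 and 9.75, and Lhx1, which is also a Purkinje cell gene.

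**Figure D2:**
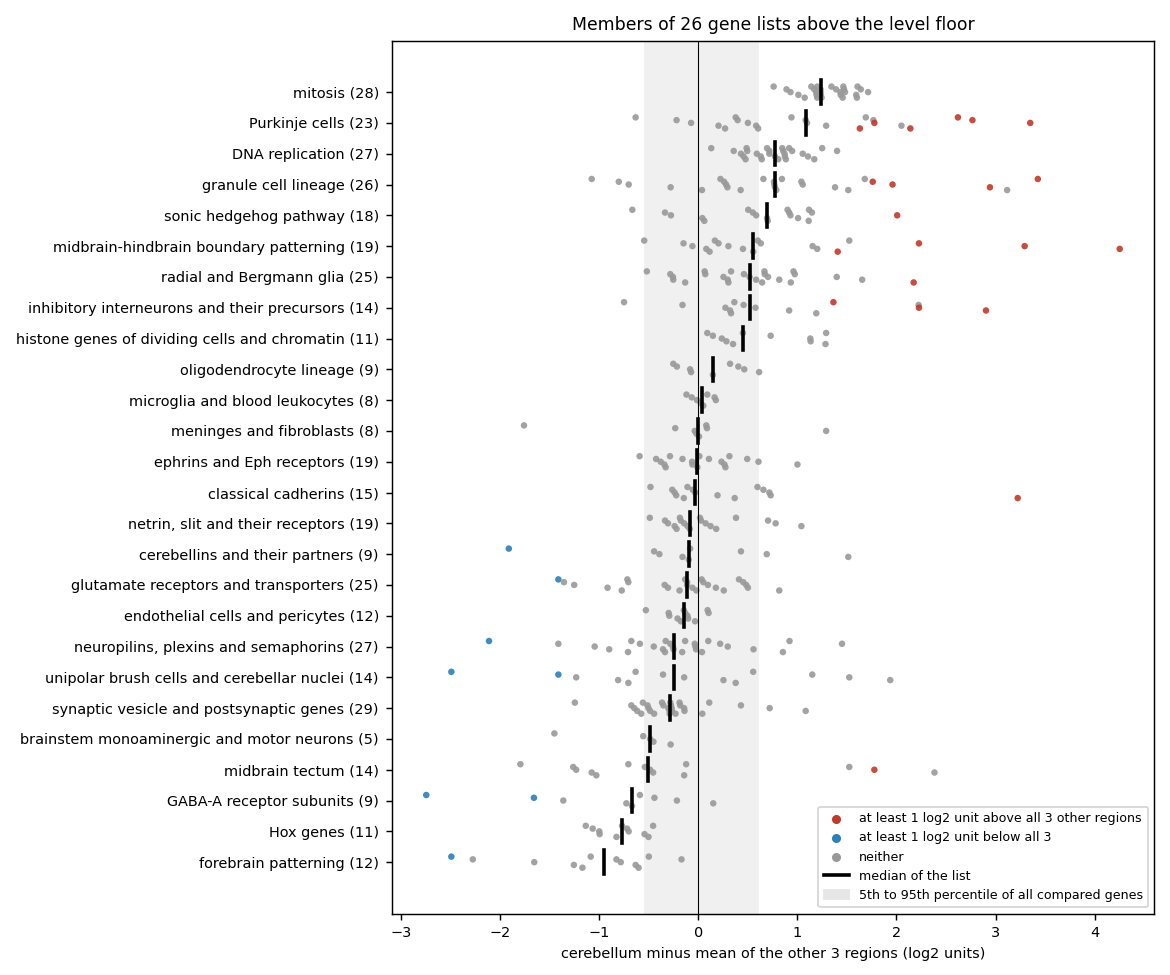
Difference between the cerebellum and the mean of the other 3 regions (log2 units) for each member above the level floor in 26 gene lists, with the number of members in parentheses and the median as a black bar. Red and blue points mark members past the size rule as higher or lower, and the grey band holds the central part of all compared genes, from -0.54 to 0.60. Mitosis genes have the highest median of the lists, at 1.24, with no member past the rule, whereas the Purkinje cell, granule lineage and boundary lists each have several red points.

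Genes of the granule cell lineage lay mostly above the bulb and the colliculus. Most did not exceed the pontine nucleus, whose neurons also come from a rhombic lip. Of 29 measured genes 26 lay above the floor, 4 of them past the rule as higher, against 0.605% of all compared genes, and none lower. Their median difference was 0.94 from the bulb and 1.38 from the colliculus, and -0.24 from the pontine nucleus. The cerebellum exceeded the bulb for 23 of the 26, the colliculus for 23 and the pontine nucleus for 9. Among the lineage markers, Pax6 read 11.64 in the cerebellum against 11.76 in the pontine nucleus, Zic1 12.90 against 13.36 and Barhl1 11.25 against 12.50. The 4 past the rule were Atoh1, Mfap4, Pde1c and Tlx3. Atoh1 and Tlx3 exceeded the floor only in the cerebellum, so the share over all compared genes is no full measure for this count. Tlx3, a homeobox gene of glutamatergic neurons, read 9.27 in the cerebellum, against 7.60, 7.36 and 7.57 in the bulb, the pontine nucleus and the colliculus. Mfap4, which encodes a microfibril-associated protein, read 11.75 against 9.75, 8.20 and 8.47.

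Within the same list, genes of later steps differed in which other region came close. Neurod1, the transcription factor of differentiating granule cells, read 12.30 in the cerebellum, against 11.52 (bulb), 6.85 (pontine nucleus) and 9.18 (colliculus). It was not past the rule because of the bulb. Nhlh1, a basic helix-loop-helix gene of newborn neurons, read 10.68 against 8.97, 10.51 and 7.52, so that the pontine nucleus came close. Cbln1, the granule cell ligand of the Purkinje cell synapse, read 11.77 against 10.94, 9.58 and 10.25. Cntn2, which marks granule neurons as they begin to extend axons, was among the members that lay below the mean of the others, at 10.54 against 11.82, 11.73 and 10.48. The 3 measured genes of the list that did not pass the floor, Gabra6, Cbln3 and Grin2c, are genes of mature granule cells. Gabra6, a GABA-A receptor subunit gene, read 6.04 in the cerebellum, against 5.97 to 6.12 elsewhere. Rbfox3 and Etv1, also on the list, passed the floor but lay below the mean of the others, at 10.71 and 10.34 in the cerebellum.

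Purkinje cell genes held the largest number of higher genes among the lists. Of 27 measured genes 23 lay above the floor, 6 were past the rule as higher, against 0.605% of all compared genes, and none as lower. Of the 23, 20 lay above the mean of the other regions, where 39.0% of all compared genes did. The median difference from that mean was 1.08, and the medians against single regions were 1.35 (bulb), 1.19 (pontine nucleus) and 0.39 (colliculus). Besides Car8 and Calb1 the 6 were Ebf2, Skor2, Lhx1 and Pcp2. Skor2 and Pcp2 exceeded the floor only in the cerebellum, which limits the comparison of this count with the share over all genes. Skor2, a corepressor gene that Purkinje cells need to differentiate, read 9.13 in the cerebellum, against 7.11, 6.70 and 7.16 in the bulb, the pontine nucleus and the colliculus. Pcp2, a G protein modulator gene known as a Purkinje cell marker, read 9.27 against 7.62, 7.61 and 7.69. Both lay clear of 3 other regions that were close to each other. For Skor2 those 3 levels lay under the background level, so its gap is a lower bound.

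For other Purkinje cell regulators the colliculus came close or lay higher. Of the 23 genes above the floor 16 were higher in the cerebellum than in the colliculus. Foxp2, a forkhead gene, read 12.09 in the cerebellum, against 10.74 (bulb), 7.77 (pontine nucleus) and 11.61 (colliculus). Rora, the nuclear receptor gene mutated in the staggerer mouse, read 11.18 against 9.41, 8.47 and 10.36. Lhx5, the LIM homeobox partner of Lhx1, read 9.52 against 7.97, 7.49 and 9.23. The colliculus lay above the cerebellum for Esrrb, at 8.97 against 6.92, 7.26 and 9.48, and for Foxp1, a relative of Foxp2, at 10.41 against 9.11, 9.72 and 10.59. The Ebf genes, which encode early B-cell factors, differed among themselves in the same respect. Ebf2 read 11.08 against 8.0, 7.58 and 9.80 and was past the rule, whereas Ebf3 read 12.62 against 10.06, 10.54 and 12.19 and Ebf1 12.62 against 10.28, 12.50 and 11.79. Shh, the mitogen that Purkinje cells secrete, did not reach the floor, at 8.39 in the cerebellum against 8.17, 8.02 and 8.33, and neither did Pvalb, a gene of mature Purkinje cells, at 7.57 against at most 6.84. Ppp1r17, also on the list and below the floor, was highest in the bulb, at 5.93 in the cerebellum against 8.38, 5.89 and 5.97.

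The inhibitory interneurons and their precursors had 3 genes past the rule as higher, of 14 above the floor and 18 measured, against 0.605% of all compared genes, and none lower. Pax2 has been described above. Tfap2a, an AP-2 gene of the GABAergic lineage, was higher by 1.14, and Kirrel2, an adhesion molecule gene downstream of Ptf1a, read 9.44 in the cerebellum, against 8.0, 7.95 and 8.28. Pax2 and Kirrel2 exceeded the floor only in the cerebellum, so here too the share over all genes is no full measure. The list median was 0.52, but it was 0.08 against the bulb alone and -0.12 against the highest of the other regions. The relative of Tfap2a, Tfap2b, had its highest level in the colliculus, with 11.30 in the cerebellum against 7.53 (bulb), 6.82 (pontine nucleus) and 12.88 (colliculus). Ptf1a itself, the determinant of cerebellar GABAergic fate, read 7.38 against at most 6.86 and did not reach the floor. The general genes of GABA synthesis were not higher in the cerebellum. Gad1, which encodes a glutamate decarboxylase, read 11.03 in the cerebellum, against 11.51 (bulb), 8.92 (pontine nucleus) and 11.57 (colliculus). Slc6a5, the glycine transporter gene of Golgi cells and other glycinergic neurons, read 9.12 against 7.64, 8.78 and 7.37.

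Genes of unipolar brush cells and of the cerebellar nuclei, the other glutamatergic neurons of the rhombic lip, did not form a common pattern. Of 14 measured genes, all above the floor, none was past the rule as higher and 2 were lower, with a median difference of -0.25. Over all compared genes 0.605% were higher and 0.156% lower. Eomes, a T-box gene of unipolar brush cells, read 10.51 in the cerebellum, against 12.21 (bulb), 6.66 (pontine nucleus) and 6.85 (colliculus). It thus stood at least 3.66 log2 units above the pontine nucleus and the colliculus while the bulb, where mitral cells express it, lay higher. Lhx2 and Slc17a6 were the lower genes. Lhx2, a LIM homeobox gene, read 8.40 in the cerebellum, against 11.59, 9.78 and 11.31, and Slc17a6, the vesicular glutamate transporter gene of the brainstem and midbrain, 10.50 against 11.75, 11.77 and 12.22.

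Radial and Bergmann glia genes had a median of 0.52 over 25 of 28 measured genes. It was 0.16 against the bulb alone and 0.04 against the highest of the other regions. Of the 25, 20 lay above the mean of the other regions, where 39.0% of all compared genes did. Only Timp4, a metalloproteinase inhibitor gene, was past the rule as higher, where 0.605% of all compared genes were. It read 10.82 in the cerebellum, against 7.59 (bulb), 9.70 (pontine nucleus) and 8.65 (colliculus). Gdf10, a growth factor gene of Bergmann glia, read 11.20 against 11.08, 8.35 and 9.21, and Ednrb, an endothelin receptor gene of glia, read 12.32 against 10.95, 10.46 and 11.36. Fabp7, a fatty acid binding protein gene of radial glia, was level, at 14.03 against 13.93 to 14.00. Hopx, a further marker in this list, lay below the bulb and the pontine nucleus, at 8.69 against 9.35, 9.32 and 8.25. Aqp4, a water channel gene of astrocytes, was highest in the pontine nucleus, at 9.09 in the cerebellum against 8.10, 10.68 and 9.25.

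Genes of cell division formed the list with the highest median. All 28 mitosis genes above the floor, of 29 measured, had their highest level in the cerebellum, as 17.9% of all compared genes did. The median difference was 0.41 log2 units from the bulb, 1.55 from the pontine nucleus and 1.87 from the colliculus. At least 1 unit separated the cerebellum from the pontine nucleus for 27 of the 28, where 4.49% of all compared genes reached that distance, and from the colliculus for all 28, where 3.08% did. None reached it against the bulb, where 2.06% of all compared genes did, and so none was past the rule. Bub1, a spindle checkpoint kinase gene, read 10.30 in the cerebellum, against 9.61 (bulb), 8.16 (pontine nucleus) and 7.99 (colliculus). Kif11, the gene of the kinesin that separates spindle poles, read 11.05 against 10.61, 9.04 and 8.68. Of 31 measured DNA replication genes 29 were highest in the cerebellum, among them the 27 above the floor, whose median distances to the same regions were 0.34, 0.91 and 1.11. The exceptions, Cdc6 and Fen1, lay below the floor, with Cdc6 at 8.16 in the cerebellum against 8.41 in the bulb and Fen1 at 8.23 against 8.24. Mcm2, a subunit of the replicative helicase, read 10.95 against 10.27, 9.30 and 9.08. Of the whole set of 66 higher genes, Sgo1, which encodes the centromere guardian shugoshin, belongs to this process. It was named after its values were seen and read 9.87 against 8.82, 7.90 and 7.61.

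Components of sonic hedgehog signalling, the mitogenic pathway of granule cell precursors, lay above the mean of the other regions for 15 of 18 genes above the floor, where 39.0% of all compared genes did. The median was 0.70 and 1 member was past the rule, against 0.605% of all compared genes. That member was Boc, a hedgehog co-receptor gene, at 11.40 in the cerebellum against 9.98 (bulb), 8.46 (pontine nucleus) and 9.74 (colliculus). Its relative Cdon did not reach the floor and was lowest in the cerebellum, at 6.77 against 7.37, 7.70 and 7.03. Transcriptional targets of the pathway differed less. Gli1 read 9.33 against 8.55, 8.25 and 8.49, Ptch1, the receptor gene, 11.49 against 10.63, 11.02 and 10.72, and Hhip, a ligand-binding inhibitor gene, 8.61 against 7.73, 7.03 and 8.99. The mitogenic targets Mycn and Ccnd1 read 10.93 against 10.29, 9.68 and 9.80, and 11.62 against 10.81, 10.45 and 10.25. Ccnd2, a D-type cyclin gene of neural precursors, was instead slightly higher in the bulb, at 11.96 in the cerebellum against 12.18, 10.73 and 10.22. Negative differences were found for Scube3, at 8.54 against 8.89 to 9.59, and Sfrp1, at 10.57 against 11.97, 10.76 and 9.99.

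**Figure D3:**
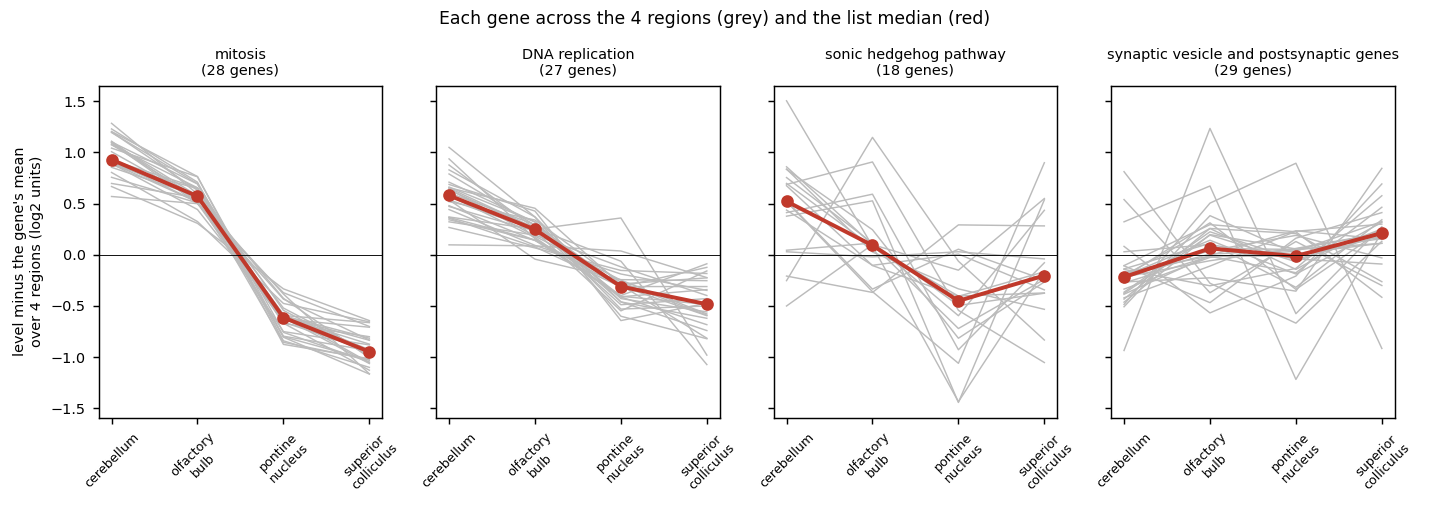
Level of each gene relative to its own mean over the 4 regions (log2 units) in 4 gene lists, with the cerebellum at the left; grey lines are genes and the red line is the list median. All 28 mitosis and all 27 DNA replication genes plotted are highest in the cerebellum, the hedgehog genes spread widely, and the median of the synaptic genes is lowest in the cerebellum.

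Of the 66 higher genes 47 stood on none of the lists. Among the 30 with the widest gaps these included signalling ligands, matrix proteins and enzymes. Fgf3, a fibroblast growth factor gene, read 9.19 in the cerebellum, against 7.38 in each of the other 3 regions. Pdgfc, a platelet-derived growth factor gene, read 11.14 against 9.31, 8.40 and 8.95. Nid1, which encodes the basement membrane linker nidogen, read 12.16 against 10.18, 9.65 and 10.69. Hsd11b2, the enzyme gene that inactivates glucocorticoids, read 11 against 8.02, 8.87 and 8.78, a gap of 4.38-fold. Dhrs3, a retinaldehyde reductase gene, read 11.19 against 8.45, 8.33 and 9.33, and Gamt, an enzyme gene of creatine synthesis, 10.84 against 9.33, 9.32 and 9.28. Pgm5, a phosphoglucomutase-related gene, was higher by 2.52, Adgrg6, an adhesion G protein-coupled receptor gene, by 1.59, and Medag by 1.58. The remaining genes of this group with gaps of at least 1.39 were Carnmt1, Nefm, Cd63, Hmga2, Adamts6 and Cecr2, with gaps of 1.39 to 1.49. Carnmt1 has 4 probe sets with gaps of 1.47 to 1.49, of which a pair held identical values, so its copies may share signal. Cxcr4, the chemokine receptor gene that holds granule cell precursors at the pial surface, was also past the rule. It was picked after its values were seen and read 11.01 in the cerebellum, against 9.86, 9.0 and 9.01.

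The lower genes included 2 GABA-A receptor subunit genes. Of 13 measured GABA-A receptor subunit genes 9 lay above the floor, and 8 of the 9 lay below the mean of the other regions, where 60.4% of all compared genes did, and 2 were past the rule as lower, against 0.156% of all. The median was -0.67, and it turned to 0.02 against the lowest of the other regions. Gabrg1, which encodes the gamma 1 subunit, read 8.68 in the cerebellum, against 11.19 (bulb), 12.52 (pontine nucleus) and 10.57 (colliculus), a gap of 3.71-fold. Gabra2, which encodes the alpha 2 subunit, read 10.31 against 11.97, 12.44 and 11.50. Gabra5, the alpha 5 subunit gene, read 9.84 against 12.03, 9.74 and 11.84, so that the pontine nucleus was as low. Gabrb2 alone lay above the mean of the others, at 11.48 against 11.45, 10.29 and 12.25. Gabrg1 and Gabra2 are neighbours on chromosome 5. Gabra4 and Gabrb1, further subunit genes, read 9.73 against 9.71 to 10.18 and 9.72 against 9.85 to 10.94, and neither was past the rule.

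Cbln4, a relative of Cbln1 that encodes a secreted synaptic organiser, read 8.34 in the cerebellum, against 10.24, 10.48 and 10.04 in the bulb, the pontine nucleus and the colliculus. It was the only one of 9 cerebellin and partner genes above the floor that was past the rule, where 0.156% of all compared genes were lower. Cbln1 and Cbln4 thus lay on opposite sides of the other regions. Dok5, an adaptor gene of receptor tyrosine kinases, is its neighbour on chromosome 2 and was also lower, at 9.30 against 10.34, 11.86 and 10.83. En2 with Cnpy1, Gabrg1 with Gabra2, and Cbln4 with Dok5 were the 3 pairs among the 83 called genes with no protein-coding gene between them, and in each pair both genes were called in the same direction. These pairs were looked for after the calls were known, and no test was made.

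**Figure D4:**
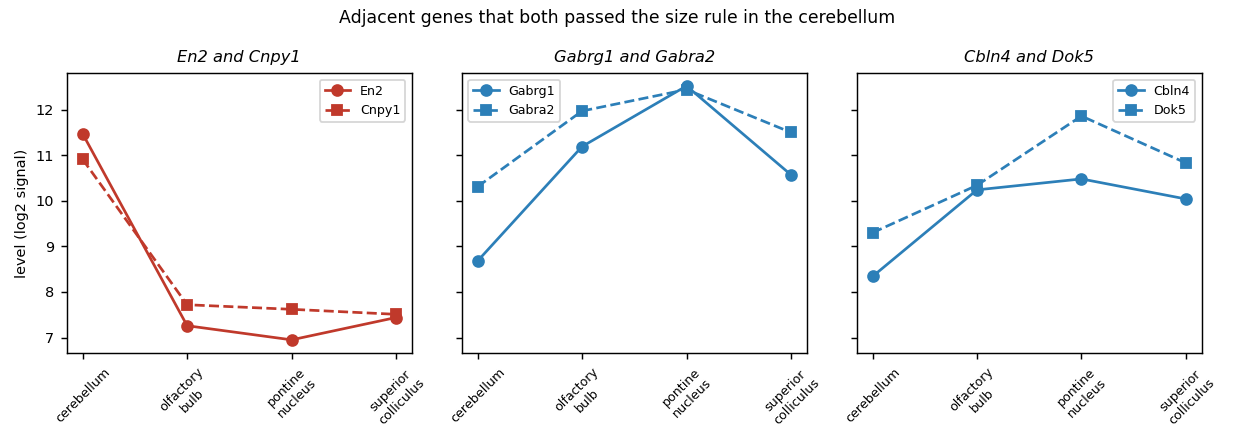
Levels (log2 signal) in the 4 regions, with the cerebellum at the left, of the 3 pairs of adjacent genes that were both past the size rule. En2 and Cnpy1 lie above 10.9 in the cerebellum and at or below 7.72 elsewhere, and Gabrg1, Gabra2, Cbln4 and Dok5 are each lowest in the cerebellum.

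Guidance and adhesion families were divided between members. In the list of neuropilins, plexins and semaphorins 19 of 27 genes lay below the mean of the other regions, a share near the 60.4% of all compared genes, with a median of -0.25. Only Nrp1 was past the rule, as lower, where 0.156% of all compared genes were. Nrp1, a semaphorin co-receptor gene, read 9.17 in the cerebellum, against 10.73 (bulb), 12.20 (pontine nucleus) and 10.92 (colliculus). Its relative Nrp2 read 9.85 against 11.33, 10.24 and 10.68. Plxnb2, a plexin gene of granule cell precursors, lay on the other side, at 12.40 against 11.31, 11.73 and 11.40. The netrin and slit list had a median of -0.09 over 19 genes and no member past the rule, with Unc5c, a netrin receptor gene, at 12.21 in the cerebellum against 10.48 (bulb), 12.36 (pontine nucleus) and 10.67 (colliculus). The ephrin and Eph receptor list had a median of -0.01 over 19 genes and none past the rule, with Epha4 at 11.14 against 9.22, 10.39 and 10.81. Among 15 cadherin genes, with a median of -0.03, only Cdh9, a type II cadherin gene, was past the rule as higher, where 0.605% of all compared genes were. It read 11.50 in the cerebellum, against 7.76 (bulb), 8.0 (pontine nucleus) and 9.07 (colliculus).

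Synaptic genes were lower by small amounts. Of 29 genes of vesicle release and of the postsynaptic side 24 lay below the mean of the other regions, where 60.4% of all compared genes did, and 16 were lowest in the cerebellum, where 30.9% were. Their median was -0.29 and none was past the rule in either direction. Snap25, a gene of the vesicle fusion machinery, read 12.20 in the cerebellum, against 12.86 (bulb), 12.72 (pontine nucleus) and 12.87 (colliculus). Cplx2, a complexin gene of vesicle release, went the other way, at 10.68 in the cerebellum against 9.59 (bulb), 9.20 (pontine nucleus) and 10 (colliculus). Glutamate receptor and transporter genes had a median of -0.11 over 25 genes, with Slc17a6 the only one past the rule, where 0.156% of all compared genes were lower. Grin2b, the subunit gene of embryonic NMDA receptors, read 10.43 against 11.42, 12.05 and 11.89. Further genes named by the size of their negative gap were Tnr, which encodes the matrix protein tenascin-R, at 9.33 against 11.24, 10.50 and 10.70, and Crabp1, which encodes a retinoic acid binding protein, at 9.81 against 10.91, 13.36 and 10.87. The rest of the 16 named lower genes, Kctd4, Sorcs3, Cldn1, Tshz3, Zfp804b, Prkce and Trpc7, had gaps between -1.24 and -1.01. Cldn1, a tight junction gene, read 6.86 in the cerebellum, which is under the background level.

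Markers of other cell types that the dissections could hold gave mostly small list medians. In the choroid plexus list 10 of 12 measured genes did not pass the floor, and Ttr, its most abundant transcript, read 7.35 in the cerebellum, against 7.71, 6.49 and 6.77. The 2 members above the floor, Otx2 and Sostdc1, were both higher in the colliculus than in the cerebellum. Their median difference from the mean of the other regions was 0.87, which is not small. The meningeal and fibroblast list had a median of -0.01 over 8 of 15 measured genes, with Dcn, the gene of the matrix protein decorin, at 7.08 in the cerebellum against 10.59, 7.28 and 8.65, and Islr at 9.75 against 9.65, 7.46 and 8.27. Endothelial and pericyte genes had a median of -0.14 over 12 genes, microglia and leukocyte genes 0.04 over 8, and oligodendrocyte lineage genes 0.15 over 9. Erythroid genes had a median of 0.00 over 2 genes, and the brainstem monoaminergic and motor list -0.49 over 5. Chromatin genes of dividing cells had a median of 0.45 over 11 genes, 10 of which were highest in the cerebellum, as 17.9% of all compared genes were. The part of other cell types in the differences above was not tested.

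Genes shared by the cerebellum with 1 other region were counted in the same way. In 89 genes, 0.816% of those compared, the cerebellum and the bulb both exceeded the pontine nucleus and the colliculus by 1 log2 unit or more, with Eomes, Ndnf and Neurod1 the widest. In 24 genes, 0.22%, it shared this position with the colliculus, led by Tfap2b, Otx2 and Tfap2a, and in 17, 0.156%, with the pontine nucleus, led by Ucma, Zbtb18 and Cyp26b1. Cyp26b1, which encodes a retinoic acid degrading enzyme, read 10.88 in the cerebellum, against 7.79 (bulb), 9.98 (pontine nucleus) and 8.14 (colliculus).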

How the data were processed

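Each of the 4 regions was hybridised to its own Affymetrix array. RNA came from Trizol and RNeasy extraction and was labelled as sense-strand cDNA, per the labels' protocols. The submitters' processing notes name Affymetrix Expression Console. For its version, algorithm and genome build, nothing is given in the sources used here. Log2 values were what the authors deposited, 1 for every probe set on every array, between 2.43 and 14.57. Their log2 scale was inferred from this range. Array medians were alike, so no further scaling was applied, and a general difference between regions may have been removed upstream. The values were not centred.

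Probe sets were named from the array's annotation table of 2016. Of 35556 probe sets, 21789 had 1 symbol, 1621 had several and were not used for genes, and 12146 are unnamed here. Entrez IDs matched 21698 of them to RefSeq (GRCm38.p6), which changed 0 symbols. The probe set with the highest mean represented each of the 999 genes with several.

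With 1 array per region there is no test. The size rule, the level floor at the 50th percentile and the list medians are described in the report. The members, the markers and the 28 gene lists (508 measured genes) were chosen with earlier results of these data known. Genes were named by a rule: the widest gaps, 30 above and up to 20 below, without predicted genes, small RNAs, chemosensory receptors, pseudogenes and antigen receptor segments; list members past the rule and up to 6 more per list by size of difference; the genes next to the threshold; the markers; and close relatives of these. Outside this rule, and picked after their values were seen, are Aqp4, Cbln3, Cdc6, Cntn2, Cyp26b1, Fabp7, Fen1, Fgf8, Fgf17, Gabra6, Gabrb2, Gad1, Gli1, Grin2c, Hhip, Ndnf, Ppp1r17, Ptch1, Ptf1a, Pvalb, Rbfox3, Scube3, Sfrp1, Shh, Ttr, Ucma, Wnt1, Zbtb18 and the genes said so in the report. The code that applies the size rule was checked on simulated levels with known shifts. Alternatives were other floors, quantile normalization, averaged probe sets, a 2-unit rule, other comparators, and leaving out each other region. Python 3.11.15, NumPy 2.4.6, pandas 2.3.3 and Matplotlib 3.10.9 were used.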

Additional observations from a re-analysis of the deposited data

Results flagged for a closer look

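Of the 12146 probe sets that are unnamed here, 7 passed the size rule as higher in the cerebellum with a level above the floor of 8.56. They drew attention because no comparison above uses them. With no entry in the annotation, it is not known here whether they measure transcripts. Probe set 10514791 had the widest gap, 2.04 log2 units, with 10.18 in the cerebellum against 8.14 (olfactory bulb), 8.09 (pontine nucleus) and 8.09 (superior colliculus). Probe set 10341762 read 9.02 in the cerebellum, against 4.86, 7.44 and 7.39. A further 12 unnamed probe sets were at least 1 unit under the other regions, and none of the 12 exceeded the floor on any array. Among the 1621 probe sets with several symbols 0 passed in either direction, by the same size rule and with no test.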

How the results depend on the processing

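The counts of 66 higher and 17 lower genes were 72 and 19 with no level floor, 68 and 17 after quantile normalization and 66 and 17 with probe sets averaged per gene. They were 41 and 14 with a floor of 10.03, the 75th percentile, 12 and 0 at 2 log2 units, and 264 and 100 against the mean of the other regions. Without the olfactory bulb, the pontine nucleus or the superior colliculus as a comparator there were 238, 93 and 112 higher and 40, 75 and 32 lower genes. All 46 named gaps stayed past 1 unit under quantile normalization and with the mean of probe sets, and all 28 list medians moved by less than 0.141, the SD of the background genes' differences, under these settings.

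The list medians depend on the comparator. Against the highest of the other regions they were -0.30 for the granule lineage and -0.12 for interneurons, both of the opposite sign, and 0.12 for Purkinje cells, 0.12 for boundary genes, 0.22 for hedgehog genes, 0.41 for mitosis, -0.53 for synaptic genes and -1.57 for GABA-A subunits. Against the lowest they were 1.77, 1.40, 1.78, 1.02, 1.18, 1.87, -0.10 and 0.02 in that order, so that the GABA-A median turned positive. Without the olfactory bulb they were 0.57 for the granule lineage, 0.71 for Purkinje cells, 0.84 for interneurons, 0.74 for boundary genes, 0.87 for hedgehog genes and 1.70 for mitosis. Without the pontine nucleus they were 1.25 for the granule lineage, 0.77 for Purkinje cells, 0.31 for interneurons, 1.10 for mitosis and -0.90 for GABA-A subunits. Without the superior colliculus they were 0.27 for the granule lineage, 1.38 for Purkinje cells, 0.69 for interneurons, 0.96 for mitosis and -0.28 for GABA-A subunits. With no floor the Purkinje median was 0.94 and the GABA-A median -0.44. Under that higher floor the medians were 0.92 for interneurons, 1.20 for boundary genes and 1.46 for mitosis, over fewer genes.

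Of the other lists, Hox genes turned to 0.18 against the lowest region and 0.17 without the pontine nucleus, forebrain genes to 0.11 against the lowest and 0.073 without the olfactory bulb, tectum genes to 0.50 against the lowest and 0.24 without the superior colliculus, brainstem neuron genes to 0.04 against the lowest and 0.005 without the pontine nucleus, and the choroid plexus list to -0.87 against the highest. No paired analysis was possible because each region has 1 array. Signals near the background level compress differences of weak genes.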
